A study of Strongylocentrotus purpuratus with 17 samples.

Results

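Transcribed regulatory elements of purple sea urchin (Strongylocentrotus purpuratus) embryos were compared between 8 h and 12 h of development. The elements are peaks called by dREG, a classifier that recognises promoters and enhancers from the paired divergent transcription in PRO-seq, an assay that labels the RNA of polymerases already engaged on DNA. All elements of both lists were taken: 56158 at 8 h and 30570 at 12 h, together 86728 of the 128949 elements in the 4 lists of the series. An element was counted as shared when it overlapped an element of the other stage by at least 1 bp on the same scaffold. An 8 h element without such a partner is called lost and a 12 h element without one is called new. Both words describe presence in a list and not a measured change in transcription.

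The 8 h list pools 2 libraries of 1 biological replicate, and the 12 h list pools 4 libraries of 3 biological replicates. All were embryos of wild genotype grown at 15 °C, with no treatment named in the labels. The tissue label of every library reads 8 h hatching blastula, so the 12 h stage was taken from the titles. Per the labels, the 12 h libraries were samples of earlier work mapped again to the same genome version, so stage and set of libraries cannot be told apart. A list carries no replicate error, no score and no read depth. Shares are therefore given with Wilson 95% intervals, which cover counting error only, and no test between stages was made.

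By the blastula stage the embryo's own genome is active and regulators of the skeletogenic, endodermal and ectodermal territories are expressed. Promoters lie at gene starts, where polymerase loads for the gene itself. Enhancers lie inside or between genes, bind the same general machinery, and are transcribed for short distances in both directions while in use. In many animals enhancers are known to differ between stages and cell types more than promoters do.

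Of the 8 h elements, 23544 were kept, 41.9% (95% interval 41.5 to 42.3), and 32614 were lost, 58.1%. Of the 12 h elements, 23502 were present at 8 h and 7068 were new, 23.1%. Lost elements covered 20.1 Mb and new elements 4.21 Mb, while kept elements covered 21.2 Mb in their 8 h form and 18.99 Mb in their 12 h form. The lists differ in length, which sets part of these shares. When the 8 h list was reduced to its 30570 widest elements, 58.8% of them were kept and 40.5% of the 12 h elements counted as new. That reduction takes away narrow 8 h elements alone, so both lists then match in number but not in width. Removing 8 h elements can only raise the share counted as new.

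Most kept elements had a single partner close in position, as the rule of overlap in part requires. They formed 23123 groups of overlapping elements, of which 22386, 96.8%, joined exactly 1 element of each stage. In 321 groups 1 element of 8 h met several of 12 h, in 364 several of 8 h met 1 of 12 h, and 52 had several on both sides. Among the 22386 pairs the midpoints lay a median of 60 bp apart (quartiles 25 and 120), and 242 pairs, 1.08%, lay more than 500 bp apart. The 12 h form was the narrower in 14799 pairs, 66.1%, and the wider in 7059, 31.5%. Its median width was 710 bp against 810 bp at 8 h, and the median ratio of widths was 0.91 (quartiles 0.77 and 1.05).

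Kept elements were wider than lost ones, and width also enters the rule, since a wider element offers more bases for an overlap. Kept 8 h elements had a median width of 820 bp (quartiles 630 and 1100) and lost ones 570 bp (480 and 690). New elements resembled lost ones, with a median of 550 bp (480 and 660), against 710 bp (560 and 980) for the 12 h elements already present at 8 h. In the narrowest width quintile of the 8 h list, 260 to 500 bp, 16.8% of elements were kept (16.1 to 17.4). In the widest, 940 to 3590 bp, 80.2% were kept (79.4 to 80.9), and the quintiles between gave 25.3%, 36.2% and 53.3%. The 12 h list had the same order, with 41.6% of the narrowest quintile new and 4.52% of the widest. Elements of at least 1000 bp made up 32.9% of the kept 8 h elements, 5.05% of the lost and 3.68% of the new. The relation of width to read depth was not tested, since the lists hold no reads.

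**Figure D1:**
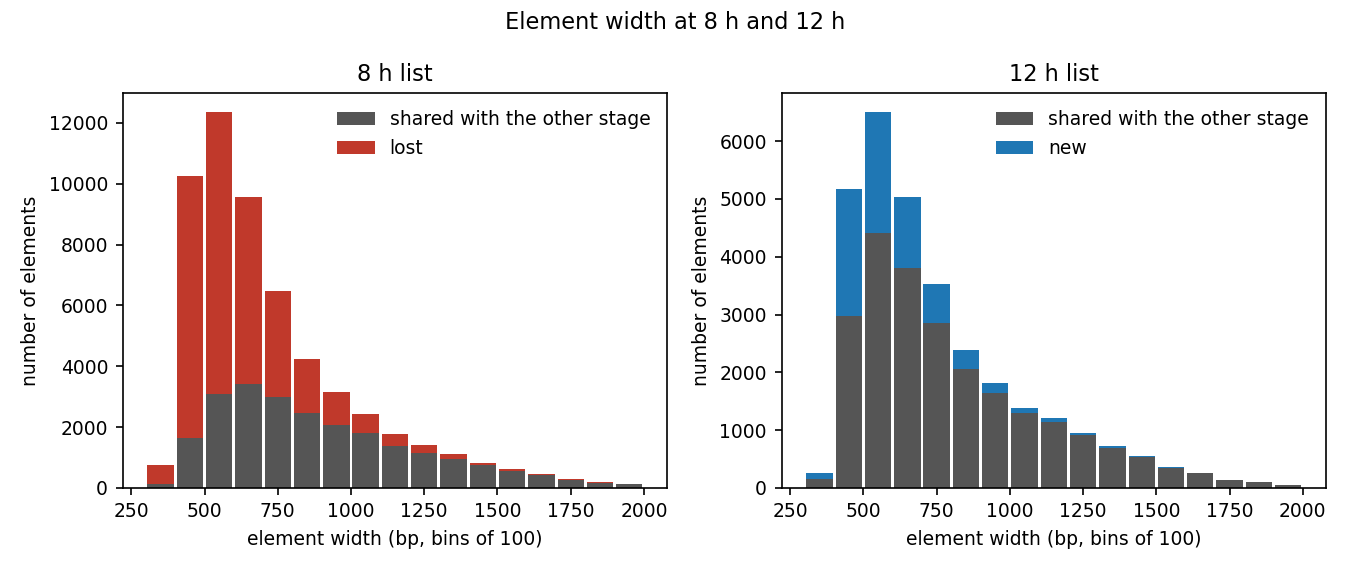
Number of elements (y axis) by width in bins of 100 bp (x axis) in the 8 h list (left) and the 12 h list (right), with shared elements in grey, lost ones in red and new ones in blue. Lost elements fill most of the narrow bins, and above 1000 bp the 8 h bars are mostly grey.

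Elements at gene ends, where promoters lie, were kept more often than others. The annotation gave no strand, so an element was counted as lying at a gene end when it overlapped the 500 bp to either side of a gene's start or stop coordinate. On the 21 scaffolds to which genes were assigned, 68.0% of the 13994 gene-end elements of 8 h were kept (67.2 to 68.7). Elements inside genes were kept in 33.2% of cases (32.5 to 33.9, n = 17986) and elements between genes in 32.5% (31.9 to 33.2, n = 20045). Seen from the classes, 43.3% of kept, 14.9% of lost and 16.7% of new elements lay at a gene end. Inside genes lay 27.1% of kept, 40.0% of lost and 42.0% of new elements. The median distance from an element's midpoint to the nearest gene end was 1714 bp for kept, 5148 bp for lost and 4068 bp for new elements.

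The order by location was also seen within width quintiles of the list. In the narrowest quintile 28.2% of gene-end elements were kept (26.1 to 30.4), against 14.9% inside genes (13.9 to 16.02) and 14.5% between genes (13.6 to 15.5). In the widest quintile the shares were 91.1%, 67.8% and 65.4%. That quintile spans 940 to 3590 bp, so width is not equal within it. Over all quintiles kept gene-end elements of 8 h had a median width of 1020 bp, and those inside or between genes 720 bp. The gene-end share lay above the other 2 in all 5 quintiles, with intervals that did not overlap. Elements inside and between genes had overlapping intervals in every quintile of the 8 h list. At 12 h, 27.5% of the narrowest and 1.93% of the widest gene-end elements were new, against 45.8% and 11.8% inside genes.

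**Figure D2:**
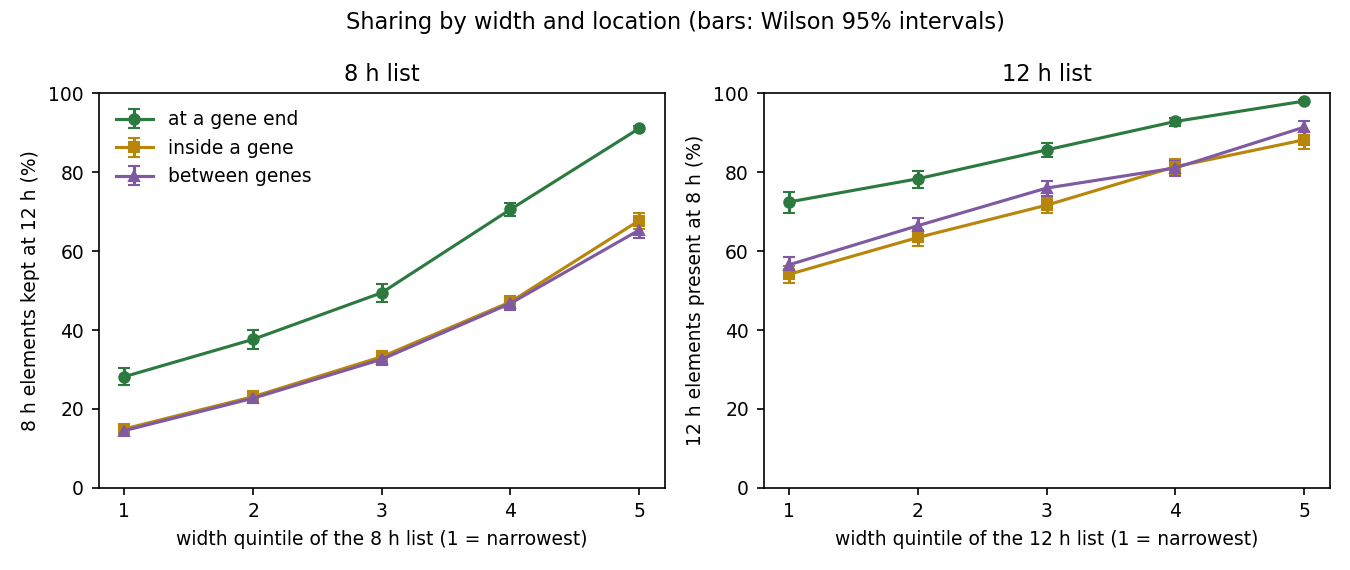
Share of 8 h elements kept at 12 h (left) and of 12 h elements present at 8 h (right), in percent, by width quintile of each list. Points are shares, bars are Wilson 95% intervals, and colours mark elements at a gene end (green), inside a gene (ochre) and between genes (purple). The gene-end line lies highest in every quintile of both lists.

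Few lost elements lay close to a 12 h element. The gap from a lost element to the nearest 12 h element had a median of 9290 bp (quartiles 3360 and 21990). It was 500 bp or less for 1594 lost elements, 4.89%, and more than 50 kb for 2625, 8.05%. New elements lay nearer to the longer 8 h list, at a median of 3810 bp (1300 and 9340), with 862, 12.2%, within 500 bp. Within its own list a lost element had its nearest 8 h neighbour at a median of 3960 bp and a kept one at 3220 bp. New and kept 12 h elements had theirs at 6000 and 5800 bp. These distances follow the lengths of the lists in part, since 12 h elements are sparser.

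**Figure D3:**
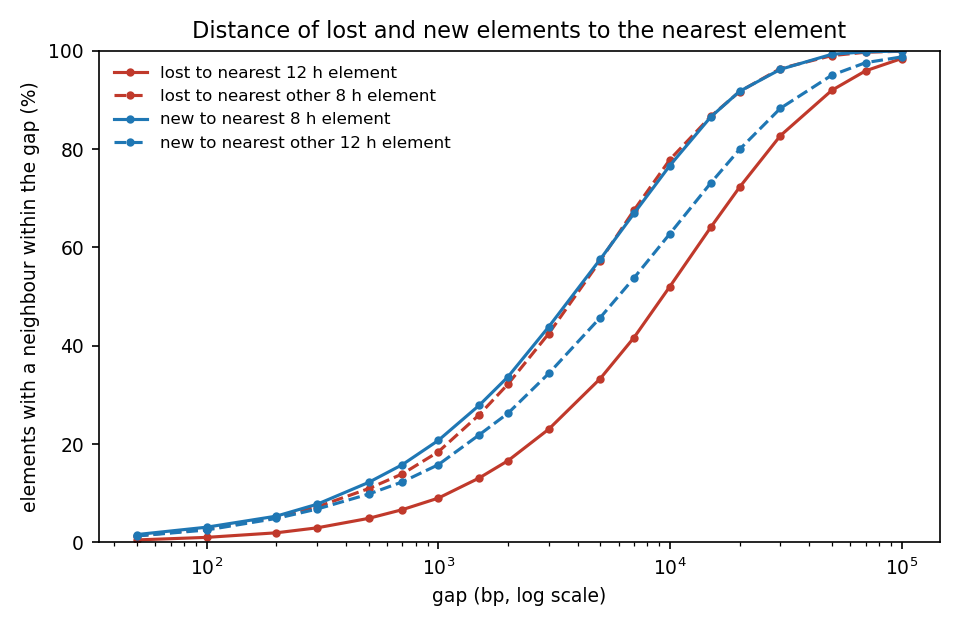
Cumulative share of lost (red) and new (blue) elements, in percent, whose nearest element lies within a given gap in bp (log axis), measured to the other stage's list (solid) and to their own list (dashed). The solid red line lies to the right of the rest, with its median at 9290 bp, and few elements of any class lie within 500 bp.

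Clustered 8 h elements were kept somewhat more often than isolated ones. Elements of a list with gaps of 5000 bp or less were joined into clusters. Isolated elements, 40.5% of the 8 h list, were kept in 38.7% of cases (38.1 to 39.4). The share was 43.5% in clusters of 2 to 4 elements (42.9 to 44.1), 47.4% in clusters of 5 to 9 (46.0 to 48.8) and 51.4% in clusters of 10 or more (45.3 to 57.4, n = 255). With gaps of 2000 bp the last class held 10 elements, 80% of them kept, and with gaps of 10000 bp it held 3168, 47.5% kept. In the narrowest width quintile 15.5% of isolated elements and 22.6% of those in clusters of 5 or more were kept. In the widest quintile these shares were 80.0% (78.8 to 81.2) and 78.1% (75.5 to 80.5), with overlapping intervals. Of the 846 clusters of 5 to 9 elements, 56 had no kept member and 34 had only kept members. Of the 23 clusters of 10 or more, 0 were wholly lost and 0 wholly kept. At 12 h the share present at 8 h hardly moved with cluster size, from 76.6% of isolated elements to 77.5% in clusters of 5 to 9, and was 74.2% (62.6 to 83.3) among the 66 elements in clusters of 10 or more.

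Lost elements tended to follow each other along a scaffold. The next 8 h element after a lost one was itself lost in 62.1% of cases (61.6 to 62.7), and after a kept one in 52.4% (51.7 to 53.02), against 58.1% of the whole list. The 32614 lost elements formed 12406 unbroken runs, 243 of them with 10 or more elements. The longest held 25 lost elements over 352.2 kb of NW_022145601.1 (23444941 to 23797130), where 9 protein-coding genes lay and 5 of the 25 were called at 20 h. In the same stretch the 12 h list had 5 elements, which are new since no 8 h element there was kept. LOC105436672, a protein-coding gene at 23651268 to 23669611, was nearest to its middle. Runs of 24 lay on NW_022145594.1 (40276921 to 40660520, nearest gene LOC115917879) and on NW_022145606.1 (3138311 to 3516960, nearest the lncRNA gene LOC115927167). A run of 23 lay on NW_022145594.1 (44404211 to 44842800, nearest LOC105437999) and one of 22 on NW_022145542.1 (383471 to 741850), to which no genes were assigned.

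New elements also followed each other. The next 12 h element after a new one was new in 26.6% of cases (25.6 to 27.7), and after a kept one in 22.1% (21.5 to 22.6), against 23.1% of the whole list. They formed 5195 runs, 75% of them of 1 element, and run lengths of lost and new elements are not compared, since they depend on each class's share of its list. New elements lay close together in a stretch of 195.2 kb on NW_022145597.1 (27801491 to 27996690), which holds 2 of the 5 longest runs of new elements and was joined into 1 stretch after its values were seen. It had 25 elements at 12 h, of which 20 were new, 80.0% against 24.8% for the scaffold. At 8 h it had 13 elements, 5 of them kept. The new ones had a median width of 555 bp, and 1 of the 20 was called at 20 h and 0 at 72 h. The genes overlapping the stretch were 4 protein-coding ones, LOC581458, LOC100888395, LOC115922752 and LOC580450, and 1 lncRNA gene, LOC115922751. The other long runs of new elements held 10 elements on NW_022145558.1 (2097771 to 2501580), 8 on NW_022145594.1 (7204761 to 7695900, nearest the lncRNA gene LOC115920885) and 8 on NW_022145609.1 (21223881 to 21269350, nearest the lncRNA gene LOC115928727).

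Lost elements outnumbered new ones on each of the 21 large scaffolds, but to different degrees. The share kept ran from 34.9% on NW_022145606.1 (33.1 to 36.7) and 35.3% on NW_022145594.1 (33.5 to 37.1) to 48.8% on NW_022145614.1 (46.8 to 50.8) and 49.5% on NW_022145611.1 (47.7 to 51.3). The same 2 scaffolds at the low end had 24.5 and 25.6 protein-coding genes per Mb, and the 2 at the high end 33.3 and 32.6. Over the 21 scaffolds the share kept went with protein-coding genes per Mb (Pearson r = 0.79, Spearman rho = 0.79) and more closely with the median width of the scaffold's 8 h elements (r = 0.93, rho = 0.94), 2 measures from the same list. With gene-end elements set aside, r with gene density was 0.64. In 806 windows of 1 Mb with at least 30 elements at 8 h the share kept had a median of 42.1% (quartiles 35.9 and 48.3). It was lowest at 13.04%, 6 of 46 elements, on NW_022145600.1 (21000001 to 22000000, 10 protein-coding genes). It was highest at 72.7%, 40 of 55, on NW_022145611.1 (16000001 to 17000000, 32 genes). In 0 of the 806 windows did new elements outnumber lost ones. Windows were chosen by their 8 h elements alone, and the 8 h list is the longer. Rule and list length therefore set this count in part, and list length also the order of lost and new on the 21 scaffolds. The other 110 scaffolds with 8 h elements held 4133 of them, 37.5% kept (36.0 to 39.0). On 28 of these no 12 h element was listed, but they held 41 elements in all.

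**Figure D4:**
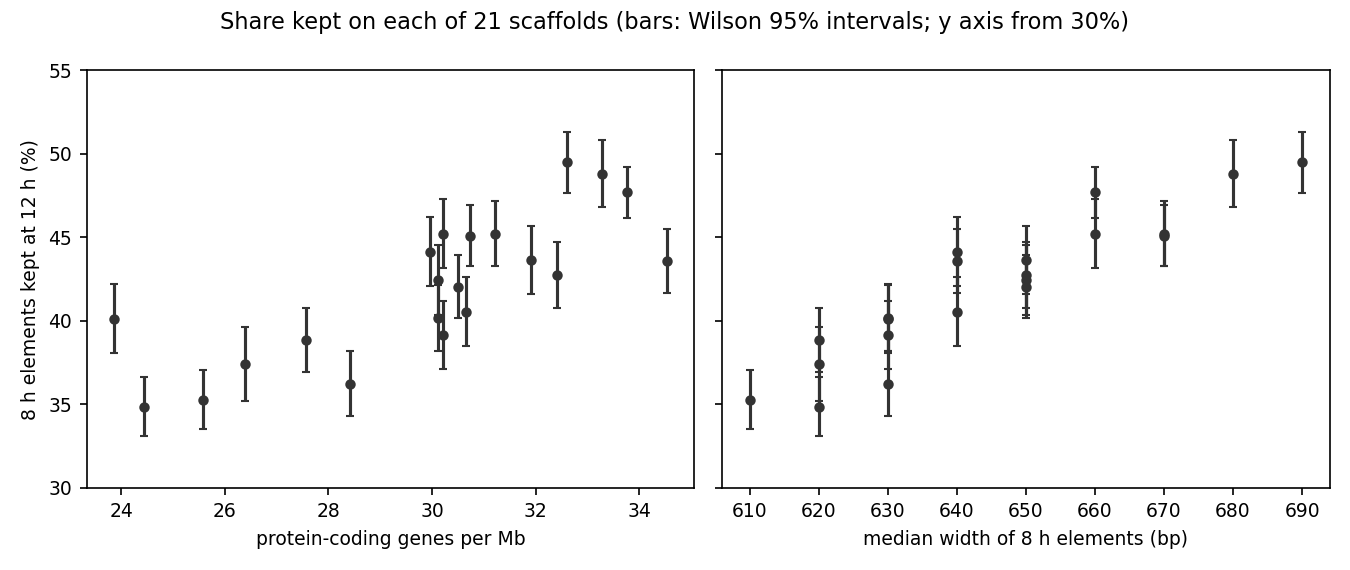
Share of 8 h elements kept at 12 h on each of 21 scaffolds, in percent with Wilson 95% intervals and a y axis from 30%, against protein-coding genes per Mb (left) and the median width of the scaffold's 8 h elements in bp (right). The share rises along both axes, from 34.9% to 49.5%.

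Most genes with an element at an end kept it. An element lay at an end of 12263 protein-coding genes at 8 h, and 3124 of these genes, 25.5%, had none at 12 h. Of the 12511 without one at 8 h, 679 had one at 12 h, 5.43%. For 9042 of the 9139 genes marked at both stages a kept element was among those at the gene's ends, and for 97 it was not. In 116 of the 3124 genes the 8 h element was kept but its 12 h form no longer reached the gene end. Among genes of at least 5000 bp, 653 had an element at both ends at 8 h. At 12 h, 150 of them, 23.0%, still had both, 389 had one end marked and 114, 17.5%, had neither. Of the 9672 such genes with a single end marked at 8 h, 2249, 23.3%, had none at 12 h.

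Gene classes differed in how often a gene-end element was lost. It was lost at 439 of 897 lncRNA genes, 48.9% (45.7 to 52.2), at 37 of 83 pseudogenes, 44.6% (34.4 to 55.3), and at 164 of 623 tRNA genes, 26.3% (23.0 to 29.9). The snRNA genes of the spliceosome lost it at 20 of 71, 28.2% (19.04 to 39.5), and 17 of 17 rRNA genes kept it. Among tRNA genes TRNAA-AGC, for alanine, had 23 of 27 copies marked at 8 h and 12 at 12 h, and TRNAD-GUC, for aspartate, 24 of 46 and then 12. The threonine gene TRNAT-AGU had 22 of 27 and then 24, and the glutamate gene TRNAE-CUC 21 of 28 and then 23. Copies of a tRNA gene are nearly identical and often adjacent, so reads can be split between them and elements are shared. The 6 TRNAA-AGC copies with most lost elements lay on NW_022145600.1 between 10923703 and 10930121 and had 7 or 8 lost elements each of 8 or 9, in neighbourhoods that overlap.

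Most protein-coding genes had a mixture of kept and lost elements around them. In the gene body and 10 kb either side, 21473 of 24774 genes had at least 1 element at 8 h. All were kept at 4578 of these, 21.3%, all were lost at 5400, 25.1%, and both kinds occurred at 11495, 53.5%. More were lost than kept at 43.9%. New elements lay near 6174 genes, 24.9% of all, and 4471 of these had also lost elements. At 1749 genes with both lost and new elements the total was the same at 8 h and 12 h. New elements lay near 521 genes that had none at 8 h.

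Gene lists of the embryo's territories were matched by symbol, which placed 112 genes from 408 symbols. The signalling list placed 10 of 42, the skeletogenic list 17 of 49 and the cell cycle list 4 of 32. Each share below covers only the placed members of its list. Each element is counted once per list, and the share lost is read against 55.02% (54.5 to 55.5) for all protein-coding neighbourhoods. The intervals of all lists but the signalling, immune and early zygotic ones held that value, and the intervals cover counting error only. The lists share genes, such as Wnt8 in the signalling, early zygotic and endoderm lists. Elements around the same gene are also grouped, so neither lists nor elements are independent. Signalling genes lost 37 of 53 elements, 69.8% (56.5 to 80.5), with 8 of the 37 around wnt1. More were lost than kept at 9 of the 10 genes, and the remaining gene, vasa, is also in the translation list. The share was 47.75% of the 111 list genes and 43.9% of all protein-coding genes with an 8 h element nearby. These sets are unlike in elements per gene. Signalling genes had a median of 1.5 kept and 3 lost elements, and all protein-coding genes 1 and 1. Immune and coelomocyte genes, which serve the adult's blood-like cells, lost 9 of 27, 33.3% (18.6 to 52.2). Early zygotic genes lost 26 of 62, 41.9% (30.5 to 54.3). Skeletogenic genes lost 36 of 60, endoderm and gut genes 40 of 66, ectoderm genes 51 of 94, homeobox genes 31 of 65 and gamete genes 38 of 66, which is 60%, 60.6%, 54.3%, 47.7% and 57.6%. In the smaller lists the share lost was 57.7% for pigment cell and other mesoderm genes (5 genes), 56.3% for apical plate and nervous system (5), 55.6% for histone (3), 53.3% for kinases and nuclear receptors (11), 52.8% for actin, cilium and adhesion (6), 41.7% for translation (5) and 36.8% for cell cycle genes (4). Around the 112 genes together, kept 8 h elements had a median width of 880 bp and lost ones 600 bp.

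The share of new elements at 12 h ranged from 0% to 44.8% over these lists, several of which held few elements. New elements were 13 of 29 for actin, cilium and adhesion genes, 44.8%, and 14 of 43 for kinases and nuclear receptors, 32.6%. Over all protein-coding neighbourhoods the share was 21.7%. Endoderm and gut genes had 2 new elements of 28, pigment cell and other mesoderm genes 1 of 11, and translation and histone genes 0 of 14 and 0 of 4. Sdc alone had 5 of the 13 in the first list. VEB4, duox1 and FRK had 4, 3 and 3 of the 14 in the second, which holds other genes as well. Early zygotic, skeletogenic, ectoderm and signalling genes lay near the share over all neighbourhoods, at 21.7%, 21.4%, 22.6% and 20.0%. The remaining lists gave 27.8% (apical plate and nervous system), 27.0% (gamete), 18.2% (immune), 15.8% (homeobox) and 8.33% (cell cycle). Each list is small, and no list was tested.

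Skeletogenic and gamete genes held most of the gene-end losses among the lists. Of the 14 skeletogenic genes marked at 8 h, 6 had no gene-end element at 12 h, and 5 of 9 gamete genes had none. Over all lists it was 18 of 86, and over all protein-coding genes 25.5%. Lower and upper ends are by coordinate, since strand was not used. The skeletogenic regulator Alx1 lost an element of 1150 bp at its upper end (NW_022145603.1, 14711331 to 14712480) that was not called at 20 h or 72 h. SM37, a spicule matrix gene, lost elements of 670 and 650 bp at its ends (NW_022145602.1, 7428461 to 7429130 and 7430041 to 7430690), and the first was called again at 20 h. PM27, another matrix gene on the same scaffold, lost 560 bp (7454411 to 7454970), called again at both later stages. P16, a gene of the biomineralizing cells, lost a 480 bp element (NW_022145615.1, 10666621 to 10667100) that was called again at 20 h. The collagen genes COLP1alpha and COLP2alpha lost elements of 470 and 550 bp (NW_022145612.1, 37381521 to 37381990 and 37436501 to 37437050), both called at 72 h and not at 20 h.

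Among regulators, blimp1/krox, a zinc finger repressor of the endoderm network, lost 680 bp at its lower end (NW_022145607.1, 33414651 to 33415330) and kept 6 of 10 elements around it. Tcf/Lef, the nuclear partner of beta-catenin in Wnt signalling, lost its single element of 590 bp (NW_022145595.1, 16556171 to 16556760). DVR1, a TGF-beta family ligand, lost 740 bp (NW_022145613.1, 6593651 to 6594390) and 3 further elements of 5. SHR3, a nuclear receptor gene, lost 770 bp (NW_022145610.1, 33932071 to 33932840) with 5 of 11 elements kept. Histone genes H2A and H2B-1 lost elements of 530 and 540 bp. Of the gamete genes, bindin (BND) lost 750 bp, the egg jelly receptor genes rej2 and REJ9 lost 1 of 1200 bp and 2 of 620 and 750 bp, the sperm ion channel gene SPIH lost 600 bp, and the major yolk protein gene myp lost 1030 bp. REJ9 and myp had no kept element in their neighbourhood.

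Gains at gene ends were found at 5 of the 26 list genes with no such element at 8 h. Of all protein-coding genes without one at 8 h it was 679 of 12511, 5.43%. The 2 sets are unlike, since an 8 h element lay near 111 of the 112 list genes and near 21473 of all 24774 genes. The homeobox gene Not gained a new element of 840 bp (NW_022145611.1, 32756121 to 32756960) next to 2 kept ones, and it was not called at 20 h. FoxJ1, a regulator of motile cilia, gained 950 bp (NW_022145599.1, 10527161 to 10528110), called again at 20 h and 72 h. The biomineralization gene msp130 gained 500 bp (NW_022145601.1, 25065741 to 25066240) and the egg jelly receptor gene REJ5 490 bp (NW_022145599.1, 3470691 to 3471180). Cdc6, a replication licensing gene, had no new element. A kept element whose 12 h form measured 1480 bp (NW_022145613.1, 39040691 to 39042170) reached its lower end.

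Soxd1, wnt1, spec2d and sfk3 had most lost elements among the protein-coding genes whose symbol is not a locus number. At soxd1 and sfk3 every kept element was wider than every lost one, while at wnt1 the widest was lost and at spec2d none was kept. Soxd1, a Sox family transcription factor gene (NW_022145603.1, 17165570 to 17279008), had 12 elements at 8 h, of which 9 were lost. The lost ones were 460 to 640 bp wide and the 3 kept ones 760 to 1430 bp, with the widest at the gene's lower end. The Wnt ligand gene wnt1 (NW_022145613.1, 36696972 to 36733344) lost 8 of 10, among them a 600 bp element at its lower end and one of 1180 bp inside the gene. It kept 2, of 750 and 1080 bp, at or near its upper end. The Src family kinase gene sfk3 (NW_022145598.1, 25358396 to 25401632) lost 7 of 8, all 450 to 750 bp, and kept 1 of 1470 bp at its upper end. The calcium-binding protein gene spec2d of the aboral ectoderm (NW_022145606.1, 30937911 to 30948968) lost 8 of 8, all 470 to 680 bp, and 3 of them were called at 20 h.

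**Figure D5:**
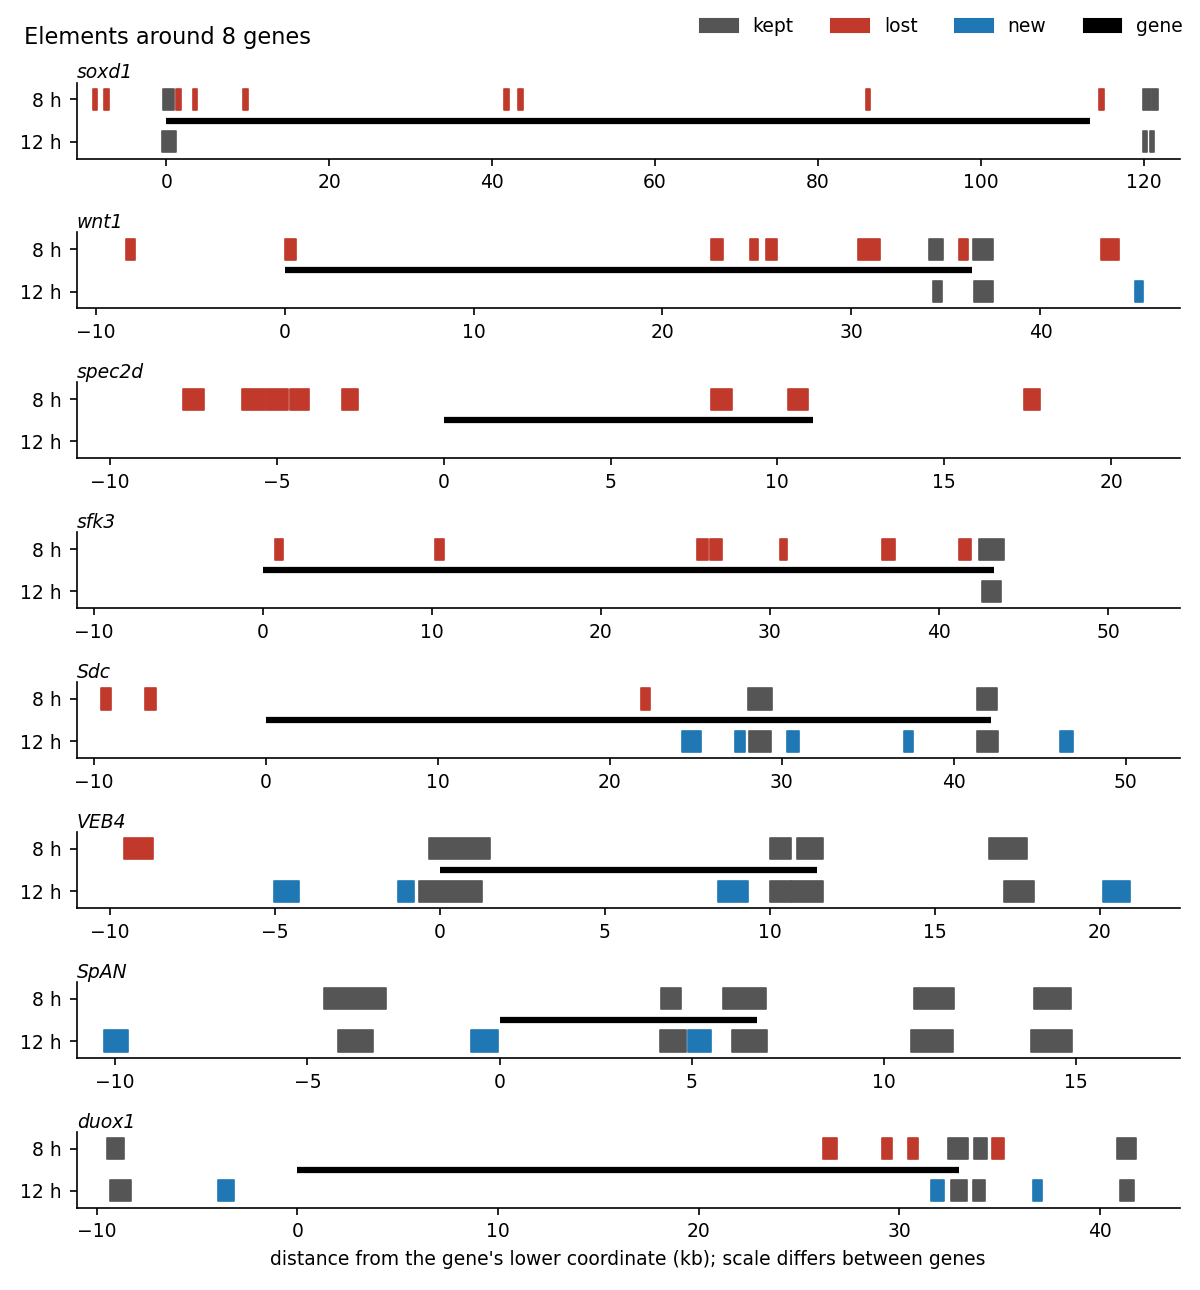
Elements at 8 h (upper row) and 12 h (lower row) around 8 genes, placed by distance in kb from the gene's lower coordinate, with kept elements in grey, lost in red, new in blue and the gene as a black bar. The first 4 genes lost 7 to 9 elements each, and the last 4 gained 3 to 5 new ones beside kept elements.

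Among the 249 protein-coding genes with a symbol other than a locus number, the 7 named for most new elements also kept an element at a gene end. Such an element is common. Of all 24774 protein-coding genes, 9139 were marked at an end at both stages, 9042 of them through a kept element. Of the 86 list genes marked at 8 h, 18 had none at 12 h. No trait of the 7 was tested. Sdc, the syndecan gene for a cell-surface proteoglycan (NW_022145613.1, 425047 to 467198), kept 2 wide elements of 1150 and 1410 bp, lost 3 of 530 to 640 bp and had 5 new ones of 500 to 1130 bp. All 5 were called again at 20 h. VEB4, a very early blastula gene (NW_022145607.1, 33695985 to 33707403), kept 4 of 5 and had 4 new. SpAN, a metalloprotease gene of the blastula and a marker of the labelled stage (NW_022145615.1, 1370304 to 1376990), kept 5 of 5 and had 3 new, of 620, 710 and 620 bp. Of the other stage markers placed, blimp1/krox kept 6 of 10, Wnt8 4 of 10 and SPEC1 3 of 4. The aboral ectoderm actin gene CyIIIa kept 3 of 4 and had 3 new, REJ3 kept 6 of 8 and had 3 new, and the kinase gene FRK kept 1 of 2 and had 3 new. The dual oxidase gene duox1 kept 4 of 8 and had 3 new, so its number went from 8 to 7 with 7 elements exchanged. Among tRNA genes, a TRNAE-CUC copy on NW_022145612.1 (37702019 to 37702090) had 3 new elements and no lost one, and 2 neighbouring copies had 2 new each. Turnover was also found at a TRNAE-CUC copy on NW_022145613.1 (26603118 to 26603189), with 2 lost, 2 new and 0 kept, and at 2 TRNAE-UUC copies on NW_022145595.1 near 9256108, with 2 lost and 2 new each in neighbourhoods that overlap.

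Elements of at least 1000 bp numbered 1646 among the lost and 260 among the new, and the 5 widest of each kind are described here. The widest lost element, 2770 bp, lay inside LOC105446783 (NW_022145601.1, 32653571 to 32656340), 17120 bp from any 12 h element. The next 4, of 2080 to 2270 bp, were nearest to LOC115920513, LOC115926574, LOC105447370 and LOC581781, and 1 of these 4 was called at 20 h. The widest new element, 2260 bp, lay 710 bp from an 8 h element (NW_022145607.1, 32376501 to 32378760) near LOC105445291. The next 4, of 1850 to 1900 bp, were nearest to LOC115921337, LOC100889459, LOC752152 and LOC576574, and 4 of 4 were called at 20 h. The widest of each kind was not called at 20 h. In the widest quintile of their lists 37.8% of lost and 44.5% of new elements were called at 20 h. None of these 10 lay at a gene end, where 14.9% of lost and 16.7% of new elements lay on the scaffolds with genes assigned. The 10 were picked by width, and no difference between the kinds was tested.

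The 20 h and 72 h lists, which were not used to define the classes, held kept elements far more often than lost or new ones. Of the kept 8 h elements 70.6% overlapped a 20 h element (70.0 to 71.2). For lost elements the share was 19.3% (18.9 to 19.8, n = 32614) and for new elements 25.7% (24.7 to 26.7, n = 7068). At 72 h the shares were 15.9%, 0.72% and 1.33%. The 72 h list held 4425 elements and the 20 h list 37796. Its length limits the 72 h shares and how far an absence at 72 h can be read, also at the genes named above. In the narrowest quintile of their lists, which spans 260 to 500 bp at both stages, 11.6% of lost elements (11.01 to 12.2) and 19.2% of new ones (17.7 to 20.8) were called at 20 h. In the widest quintile these were 37.8% (35.8 to 39.9) and 44.5% (38.8 to 50.5), with intervals that overlap. Kept 8 h elements were called at 20 h in 40.0% (37.9 to 42.1) of the narrowest and 89.5% (88.8 to 90.1) of the widest quintile. Kept elements were wider than lost and new ones, and width enters this overlap as well. Lost elements at gene ends were called at 20 h in 31.2% of cases (29.9 to 32.6), those inside genes in 17.9% and those between genes in 17.7%. For new elements the shares were 36.9% (34.0 to 39.8), 24.5% and 23.7%, and for kept 8 h elements 86.75%, 57.88% and 60.98%. The 20 h libraries, like those of 12 h, came from earlier work, and the 20 h list was also used to place genes on scaffolds.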

How the data were processed

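The deposited dREG lists, 1 per stage for the PRO-seq libraries of 8, 12, 20 and 72 h, were used with no change to the authors' positions. Genome version Sp 5.0 is named per the labels. How reads were aligned, how dREG was run and how libraries were combined is not given in the sources used here. A deposited list holds only the scaffold, start and end of each peak, in steps of 10 bp with no overlapping peaks, so depth is unknown. No reads, signal or sequence were analysed here.

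Lists were compared with Python 3.11.15, numpy 2.4.6, pandas 2.3.3 and scipy 1.17.1. The routines were tested on simulated lists. Positions are printed counting from 1.

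Gene positions came from the RefSeq table of Spur_5.0, which gives neither scaffold nor strand. Its genes stand in runs of increasing start. The 21 runs with 900 genes or more were each assigned to the scaffold whose 20 h elements, from a list outside this comparison, touched the largest share of its gene ends, with a margin of 500 bp. This share ranged from 12.4% to 31.1%. The runner-up scaffold reached 7.4% to 11.8%, so the ratio was 1.33 to 3.67. The 8 h, 12 h and 72 h lists chose the same scaffold for 21 of 21 runs. Scaffolds of genes, 30064 of 33490, are therefore inferred.

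The elements compared and the gene lists were chosen with earlier results of these data known. Named genes were the list members whose gene-end element was in 1 list alone, the genes with a symbol other than a locus number that had most lost (10), most new (10) or most of both (5), and those nearest to the 5 widest elements and 5 longest runs of each kind. Medians and shares are descriptions, with no test.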

Additional observations from a re-analysis of the deposited data

How the results depend on the processing

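Of 37 alternative values over 13 results, 15 stayed close to the value given (a share within its interval, a count within 1.5 times) and 22 moved further. The share of 8 h elements kept, 41.92%, was 38.06% when 50% of both elements had to overlap, 40.0% with midpoints, 44.76% within 500 bp, 42.76% after joining elements 500 bp apart, and 58.83% with the 8 h list reduced to its widest elements. The share of 12 h elements new, 23.12%, was 30.08%, 25.49%, 20.3%, 22.4% and 40.52% in the same order. With elements of 600 bp or more, a choice made after seeing the data, they were 44.45% and 22.09%. With gaps of 2000 bp the share kept in clusters of 10 or more was 80.0%, from 10 elements. With gaps of 10000 bp it was 47.51%, from 3168 elements. With gene-end windows of 200 and 1000 bp, the share at a gene end was 11.22% and 20.38% for lost, 11.98% and 23.51% for new and 40.35% and 47.52% for kept elements. With 50 kb either side, 53.79% of protein-coding genes had more lost than kept elements. Requiring overlap of 50% of both elements, 16.51% of lost and 22.13% of new elements were found at 20 h. The cause of these shifts was not tested, beyond what each rule adds or removes by construction. A minimum of 300 bp left out 3 elements, so it could not stand in for a stricter threshold. Gene starts alone were not run, since the annotation used here has no strand. No paired analysis was possible because each stage has 1 pooled list and no value per library, and for the same reason no library could be left out. Depth is unknown, so an element absent at 12 h and one sequenced too lightly to be called cannot be told apart.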
